A study of Rattus norvegicus with 12 samples.

Results

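Receptor genes for glutamate, GABA, glycine and acetylcholine (nicotinic) were followed in rat ventral midbrain cultures after depolarization. A gene was taken if its symbol in the array's annotation began with Gria, Grik, Grin1, Grin2, Grin3, Grm and a digit, Gabra, Gabrb, Gabrg, Gabrd, Gabbr, Glra, Glrb or Chrn, and if the probe set carried that symbol alone. This found 54 of the 10411 genes with such a probe set, at 71 of the 15866 probe sets tested, and each gene was read at its brightest probe set, the one with the highest mean over all arrays. They comprised 4 AMPA, 5 kainate, 7 NMDA and 7 metabotropic glutamate receptor genes, 9 GABA-A and 2 GABA-B receptor genes, 4 glycine receptor genes and 16 nicotinic receptor genes. Of the 54 genes, 26 lay among the dimmest 25% of probe sets.

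The 12 samples were cells from the ventral midbrain of CD1 rat embryos (strain as labelled) at embryonic day 12, each hybridized to 1 single-colour Affymetrix rat array. All groups were cultured alike. They received Sonic hedgehog (50 ng/ml) together with bFGF, a fibroblast growth factor (20 ng/ml), over 6 days, spent 3 more days without either and were used on day 9. Depolarized cultures received 56 mM KCl for 2 h and were collected 30 min or 2 h after its end, control cultures were kept in control medium for the matching times, and each of the 4 groups held 3 arrays (numbered 1 to 3 at 30 min and 4 to 6 at 2 h). Embryos from 4 pregnant rats had been combined into 3 groups, and RNA of duplicate cultures was pooled, so that errors and p-values reflect the spread between pooled cultures and not between animals. The labels do not say whether both collection times came from one preparation. Time of collection and preparation therefore cannot be told apart where the 2 sets of controls, or the responses at the 2 times, are compared.

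AMPA, kainate and NMDA receptors are glutamate-gated cation channels built from the Gria, Grik and Grin subunits, and the Grm genes encode G-protein-coupled glutamate receptors. GABA-A and glycine receptors are chloride channels assembled from several subunits, the GABA-B receptor is a G-protein-coupled dimer, and nicotinic receptors are acetylcholine-gated cation channels of neurons and of muscle. Midbrain dopaminergic neurons are driven by glutamate, restrained by GABA and modulated through nicotinic receptors, and the subunits a neuron makes set the kinetics and pharmacology of its synapses.

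Most of these genes were not called with depolarization. At 30 min, 3 of the 54 genes were higher and 0 lower at an adjusted p under 0.05 (limma), where 24% of all probe sets passed (10.8% higher and 13.1% lower) and 26.3% of all genes read at their brightest probe set. The genes that rose were Gabrb2, Glra2 and Chrne. At 2 h, 2 were higher and 7 lower, where 25.2% of all probe sets passed (9.51% higher and 15.7% lower) and 28% of all genes. Chrna2 and Chrne rose, and Gria3, Grik4, Grin1, Grin2d, Gabrb2, Gabbr2 and Glra2 fell. Of the dimmest 25% of probe sets, which held 26 of the receptor genes, 6.45% passed at 30 min and 7.44% at 2 h. The median log2 difference of the 54 genes was 0.05 at 30 min and 0.02 at 2 h, and over all tested probe sets it was 0.01 and -0.0007. Depolarized and control arrays did not overlap for 8 receptor genes at 30 min, where this held for 36.8% of all probe sets, and for 12 at 2 h, where it held for 37.5%.

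Set directly against each other, the 2 responses differed for 5 genes, all lower at 2 h than at 30 min, where 13% of all probe sets passed this test (6.16% higher and 6.79% lower) and 14.1% of all genes. They were Gabrb2 (-1.01), Glra2 (-0.66), Gria3 (-0.45), Grik4 (-0.45) and Grin1 (-0.45, log2 response at 2 h minus log2 response at 30 min). The controls themselves differed more often. Between the controls collected at 2 h and those collected at 30 min, 14 receptor genes were higher and 11 lower, where 35.3% of all probe sets passed (18.1% higher and 17.2% lower) and 36.6% of all genes. The arrays of the 2 control groups did not overlap for 28 receptor genes and for 49.5% of all probe sets. In all, 27 genes passed in at least 1 of the 4 comparisons, 9 of them in a treatment comparison, and 27 passed in none. The comparison of the controls shares the 2 h control arrays with the treatment comparison at 2 h, so that both are given for each receptor gene that passed at 2 h. These arrays enter the 2 comparisons with opposite signs. An error in them moves the 2 differences in opposite directions, for receptor and partner genes alike.

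**Figure D1:**
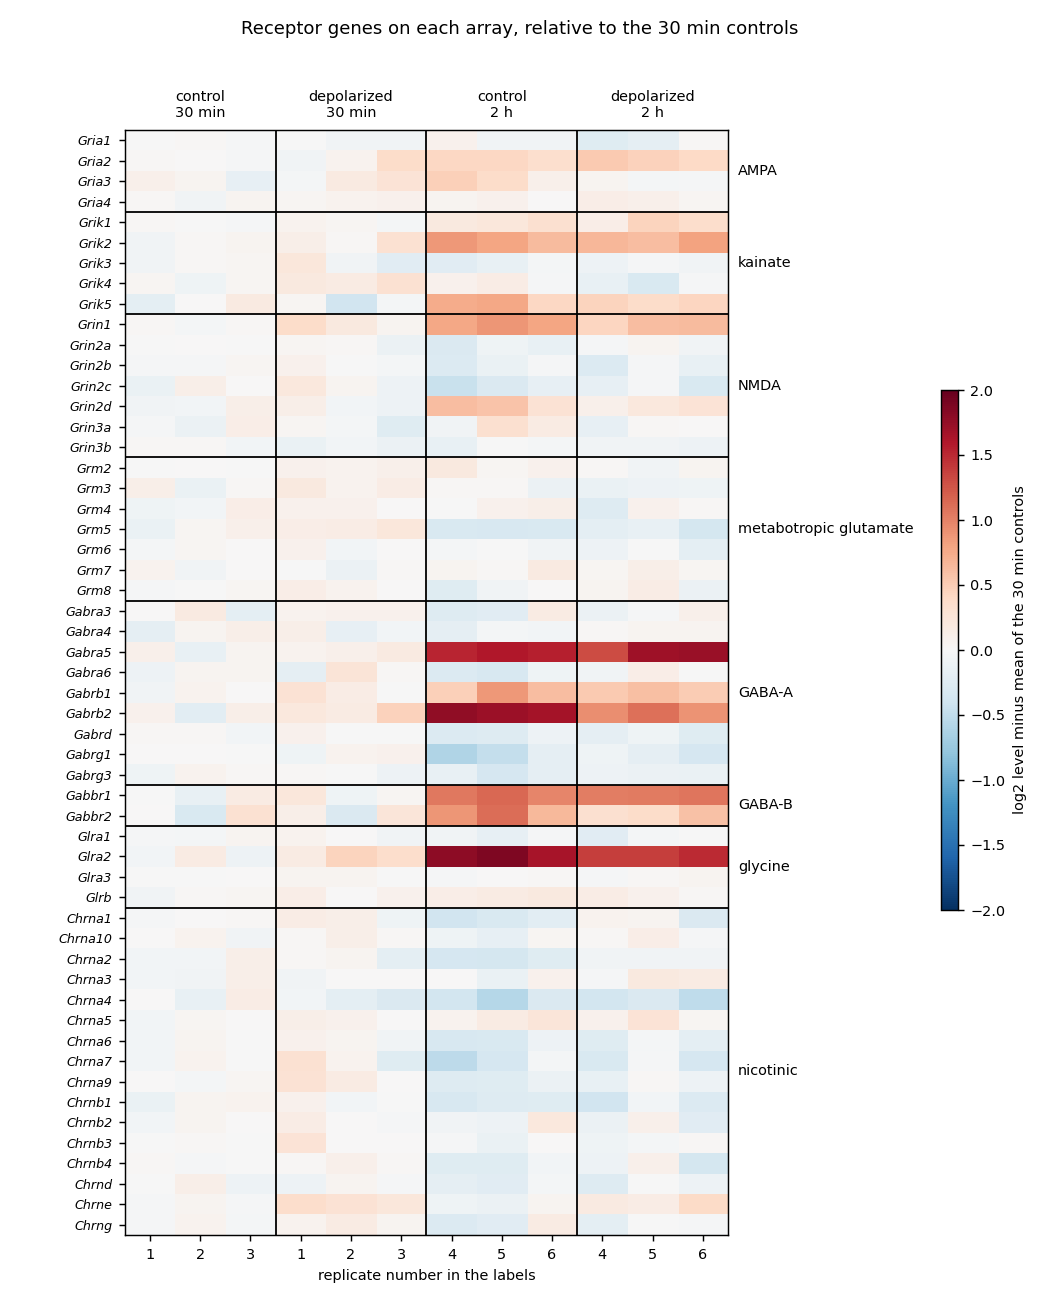
Log2 level of the 54 receptor genes (rows, by class) on each of the 12 arrays (columns, by group and replicate number), minus the mean of the 30 min controls. Gabra5, Gabrb2, Gabbr1 and Glra2 are the highest rows on the arrays collected at 2 h, followed by Grik2, Grin1, Gabbr2, Gabrb1 and Grik5, and most other rows stay closer to the level of the 30 min controls.

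The count at 2 h rested on single arrays. It was 3 without control array 4, without control array 5 or without depolarized array 4, 5 without depolarized array 5, and 12 without control array 6. The calls of Gabrb2, Glra2 and Chrne at 2 h held whichever array of that comparison was left out. Normalization also moved it, to 2 higher and 3 lower after quantile or loess normalization and to 4 higher and 4 lower after median centring. At 30 min the count rose from 3 to 5 after quantile or loess normalization, where Grik4 and Grin1 passed too, and to 7 after median centring, which also added Grm3 and Grm5.

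Array medians lay between 8.32 and 8.43 log2 units, and the correlation across probe sets was 0.9957 to 0.9979 for array pairs within a group. Markers of neurons differed between the 2 sets of controls, where time and preparation cannot be told apart. All 10 pan-neuronal markers measured were higher in the 2 h controls (median log2 difference 1.07), with a list mean of 10.31 to 10.53 log2 units on the 30 min control arrays and 11.44 to 11.46 on the 2 h control arrays. Dopaminergic markers were higher for 6 of 9 genes and GABAergic markers for 3 of 3. Of the neural progenitor markers 4 of 5 were lower, and of the oligodendrocyte lineage markers 5 of 6. Between the controls 18.1% of all probe sets were higher and 17.2% lower. With treatment the pan-neuronal list mean moved less. At 30 min it was 10.55 to 10.68 on the depolarized arrays, which lay above the controls (median log2 difference 0.11, 1 of 10 genes higher). At 2 h it was 11.40 to 11.48 on the depolarized arrays, which overlapped with the controls (median -0.10, 2 genes higher and 0 lower). The dopaminergic list mean was 7.58 to 7.70 on the 30 min control arrays and 7.87 to 8.02 on the depolarized arrays, which lay above them (median log2 difference 0.29, 2 of 9 genes higher), and at 2 h its arrays overlapped, with 3 genes higher and 1 lower. The oligodendrocyte lineage list mean lay below the controls at both times. It was 8.70 to 8.77 against 8.84 to 8.95 at 30 min and 8.05 to 8.08 against 8.18 to 8.31 at 2 h. At these times 1 and 2 of its 6 genes were lower, and the median log2 difference over the list was -0.12 and -0.02. Of all probe sets, 10.8% were higher and 13.1% lower at 30 min, and 9.51% higher and 15.7% lower at 2 h. The part of these cell type differences in the receptor values was not tested, and in such bulk samples fewer cells of a type and less RNA per cell cannot be told apart.

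**Figure D2:**
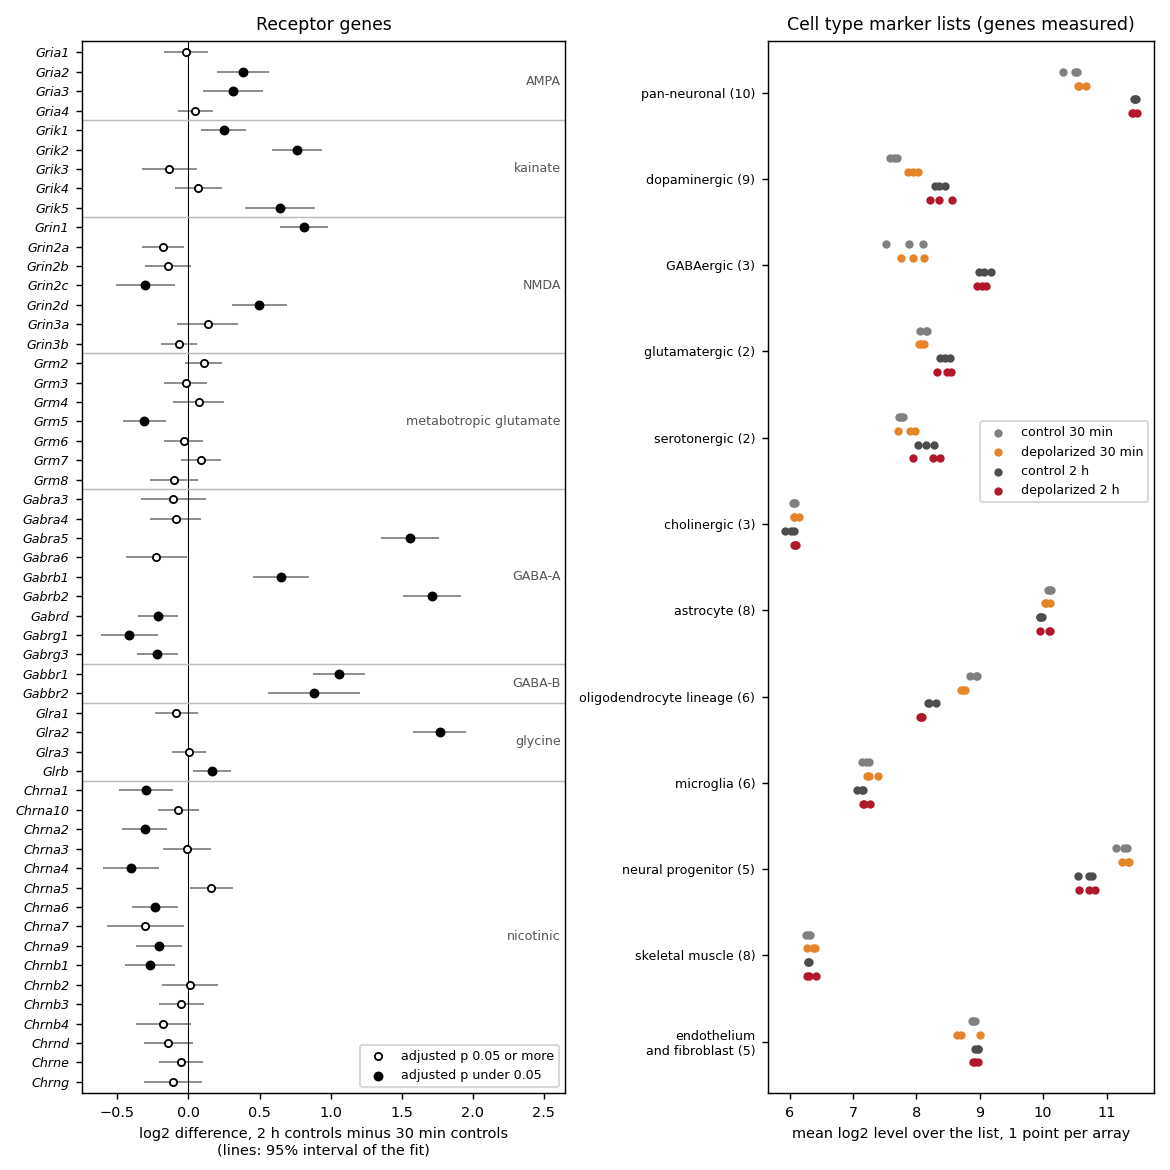
Left, log2 difference of each receptor gene between the controls collected at 2 h and at 30 min, with 95% intervals of the fit and filled points at an adjusted p under 0.05. Right, mean log2 level of each cell type marker list on every array, with 1 point per array in the colour of its group. The pan-neuronal, dopaminergic and GABAergic lists lie higher at 2 h and the neural progenitor and oligodendrocyte lineage lists lower.

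The largest treatment response among the GABA-A receptor genes was that of Gabrb2, which encodes the beta 2 subunit. Its levels were 8.22, 7.92 and 8.26 log2 units in the 30 min controls, 8.34, 8.30 and 8.59 in the depolarized cultures at 30 min, 9.91, 9.84 and 9.80 in the 2 h controls and 9.07, 9.24 and 9.03 in the depolarized cultures at 2 h. All 3 depolarized arrays lay above the controls at 30 min and below them at 2 h. Gabrb2 rose by 0.28 at 30 min (SE 0.10, 1.21-fold, adjusted p = 0.0476) and fell by 0.74 at 2 h (SE 0.10, 1.67-fold lower, adjusted p = 5.36e-05), and the responses differed by -1.01 (SE 0.14, adjusted p = 0.000129). The rise at 30 min did not pass without control array 2 or depolarized arrays 1 or 3 (adjusted p up to 0.256), with array weights (0.0595) or in a fit of only the arrays compared (0.0893), and the fall at 2 h passed without each array in turn (adjusted p up to 0.000535). In the controls Gabrb2 was 1.72 log2 units higher at 2 h than at 30 min (SE 0.10, 3.28-fold, adjusted p = 4.2e-09). Even after the fall, the depolarized arrays at 2 h lay above all arrays of the 30 min controls. Another Gabrb2 probe set, among the dimmest 25%, passed in none of the comparisons, with differences of -0.05 at 30 min and -0.15 at 2 h.

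Gabra5 encodes the alpha 5 subunit of mostly extrasynaptic GABA-A receptors. Its log2 level was 7.54, 7.30 and 7.49 in the 30 min controls and 8.97, 9.04 and 8.99 in the 2 h controls, a difference of 1.56 (SE 0.10, 2.94-fold, adjusted p = 1.02e-08). The depolarized arrays, at 7.51, 7.54 and 7.61 and then at 8.75, 9.14 and 9.17, overlapped with their controls at both times. No treatment difference passed for Gabra5, with 0.12 at 30 min (95% interval -0.09 to 0.32) and 0.02 at 2 h (-0.18 to 0.22). The beta 1 subunit gene Gabrb1 was also higher in the 2 h controls, by less. It read 8.60, 8.74 and 8.68 in the 30 min controls, 8.96, 8.82 and 8.67 in the depolarized cultures at 30 min, 9.15, 9.54 and 9.29 in the 2 h controls and 9.20, 9.27 and 9.18 in the depolarized cultures at 2 h. The 2 h controls were 0.65 higher than the 30 min controls (SE 0.09, adjusted p = 5.28e-05), and the treatment differences of 0.14 and -0.11 did not pass.

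The gamma 1, gamma 3 and delta subunit genes were lower in the 2 h controls and did not pass with treatment. Gabrg1 was at 8.04, 8.05 and 8.04 log2 units in the 30 min controls and 7.44, 7.57 and 7.86 in the 2 h controls (difference -0.42, SE 0.09, adjusted p = 0.0026). Its depolarized arrays read 7.96, 8.12 and 8.13 at 30 min and 7.96, 7.87 and 7.70 at 2 h, and overlapped with the controls of the same time. The Gabrg1 difference at 2 h, 0.22, had an adjusted p of 0.109, which became 0.00883 without control array 6. Gabrg3 read 7.12, 7.29 and 7.23 in the 30 min controls and 7.06, 6.88 and 7.04 in the 2 h controls (-0.22, SE 0.07, adjusted p = 0.0187), with depolarized arrays at 7.24, 7.21 and 7.11 and at 7.11, 7.09 and 7.08. Gabrd, the delta subunit of extrasynaptic receptors, was at 6.92, 6.92 and 6.85 against 6.62, 6.63 and 6.79 (-0.21, SE 0.07, adjusted p = 0.0189), with depolarized arrays at 6.98, 6.88 and 6.89 and at 6.72, 6.81 and 6.66. For all of these genes the arrays of the 2 control groups were apart. Gabrg3 and Gabrd passed no longer after quantile normalization (adjusted p = 0.108 and 0.065) or loess correction (0.0848 and 0.0605). Gabrd was also lost without control arrays 1, 2, 4 or 5 (adjusted p up to 0.0798), and Gabrg3 without control arrays 2, 3 or 5 (adjusted p up to 0.096). Gabra3, Gabra4 and Gabra6 passed in no comparison, with treatment differences of -0.03 to 0.08 at 30 min and 0.09 to 0.25 at 2 h.

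GABA-B receptors are dimers of the GABA-binding Gabbr1 product and the Gabbr2 product, which carries it to the membrane and couples to G proteins. Gabbr2 was at 9.64, 9.33 and 9.94 log2 units in the 30 min controls, 9.74, 9.34 and 9.88 in the depolarized cultures at 30 min, 10.52, 10.75 and 10.28 in the 2 h controls and 9.95, 10.00 and 10.21 in the depolarized cultures at 2 h. At 2 h all depolarized arrays lay below the controls, and Gabbr2 fell by 0.46 (SE 0.15, 1.38-fold lower, adjusted p = 0.0364). This call was lost without control arrays 4 or 5 or depolarized arrays 4 or 5 (adjusted p up to 0.175), after quantile (0.0543) or loess (0.0546) normalization and with a trended prior (0.0656). The 30 min difference of 0.02 did not pass, and the difference between the responses, -0.48, had an adjusted p of 0.174. In the controls Gabbr2 was 0.88 higher at 2 h (SE 0.15, adjusted p = 0.000317), while its dimmer probe set differed by -0.11 (adjusted p = 0.262).

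Gabbr1 did not pass with treatment at any of its 5 probe sets. The levels at the brightest one were 10.72, 10.58 and 10.90 log2 units in the 30 min controls, 10.96, 10.65 and 10.77 in the depolarized cultures at 30 min, 11.78, 11.89 and 11.71 in the 2 h controls and 11.76, 11.77 and 11.80 in the depolarized cultures at 2 h. The treatment differences were 0.06 (95% interval -0.12 to 0.25) and -0.02 (-0.20 to 0.17). Between the controls Gabbr1 was 1.06 higher at 2 h there (SE 0.09, 2.08-fold, adjusted p = 1.7e-07), and its probe sets disagreed. The others differed by 0.27 (adjusted p = 0.0419), 1.30 (9.53e-06), -0.55 (0.000602) and -0.17 (0.222). The probe set that was lower had levels of 8.85, 9.15 and 9.27 in the 30 min controls and 8.55, 8.56 and 8.51 in the 2 h controls, while the one with the largest rise went from 8.99, 8.59 and 9.32 to 10.17, 10.44 and 10.18. Which transcripts each probe set detects is not given in the sources used here.

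**Figure D3:**
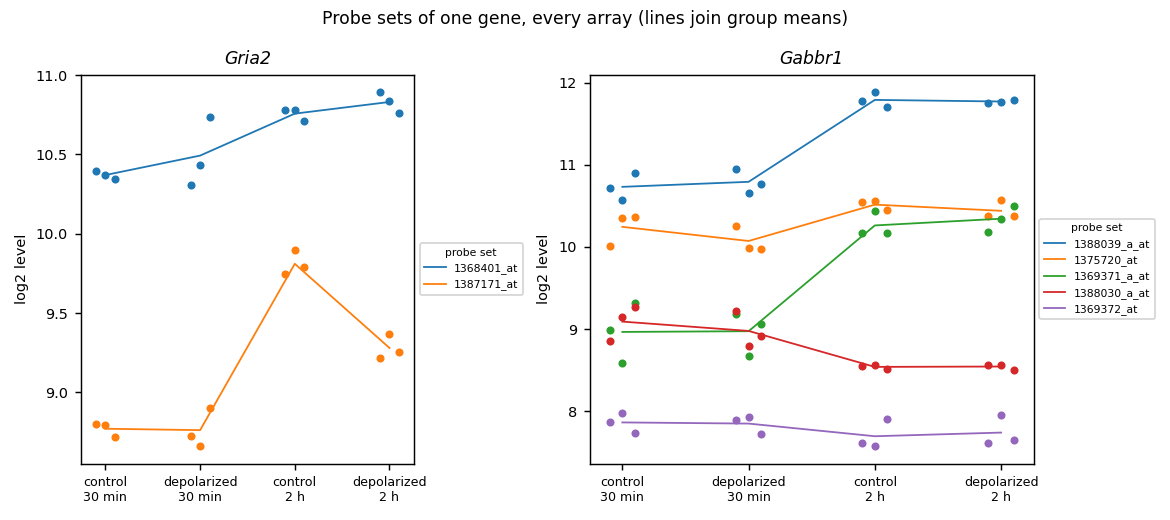
Log2 level of every probe set of Gria2 (left) and Gabbr1 (right) on each array, by group, with lines joining the group means. The dimmer Gria2 probe set is lower in the depolarized cultures at 2 h and the brighter one is not, and the 5 Gabbr1 probe sets differ between the controls in both directions.

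The glycine receptor alpha 2 gene, Glra2, encodes the alpha subunit that prevails in the embryonic brain. It read 6.87, 7.09 and 6.82 log2 units in the 30 min controls, 7.09, 7.37 and 7.28 in the depolarized cultures at 30 min, 8.72, 8.79 and 8.57 in the 2 h controls and 8.32, 8.32 and 8.43 in the depolarized cultures at 2 h. The depolarized arrays lay above the controls at 30 min, by a narrow margin, and below them at 2 h. Glra2 rose by 0.32 at 30 min (SE 0.09, 1.25-fold, adjusted p = 0.0125) and fell by 0.34 at 2 h (SE 0.09, 1.27-fold lower, adjusted p = 0.00877). The responses differed by -0.66 (SE 0.12, adjusted p = 0.00193). At 30 min the call was lost without control arrays 1 or 3 or depolarized array 2 (adjusted p up to 0.0693), and at 2 h it held without each array in turn (up to 0.0482). With 1.77 (3.4-fold, SE 0.09, adjusted p = 1.97e-09), Glra2 also had the largest difference between the controls of all 54 genes. A dimmer Glra2 probe set differed by 0.10 at 30 min and -0.02 at 2 h and passed in no comparison.

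Glrb encodes the beta subunit through which glycine receptors bind gephyrin. Glrb was at 5.60, 5.69 and 5.70 log2 units in the 30 min controls, 5.80, 5.67 and 5.74 in the depolarized cultures at 30 min, 5.80, 5.82 and 5.86 in the 2 h controls and 5.81, 5.75 and 5.69 in the depolarized cultures at 2 h. Its difference between the controls, 0.17 (SE 0.06, adjusted p = 0.0481), was the smallest that passed, and it was lost without control arrays 1, 2, 3, 4, 5 or 6 (adjusted p up to 0.165), after median centring (0.0794) and in a fit of only the arrays compared (0.0582). Glra1 and Glra3, both among the dimmest 25%, passed nowhere, and their treatment differences lay at 0.00 to 0.03 and 0.00 to 0.02.

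**Figure D4:**
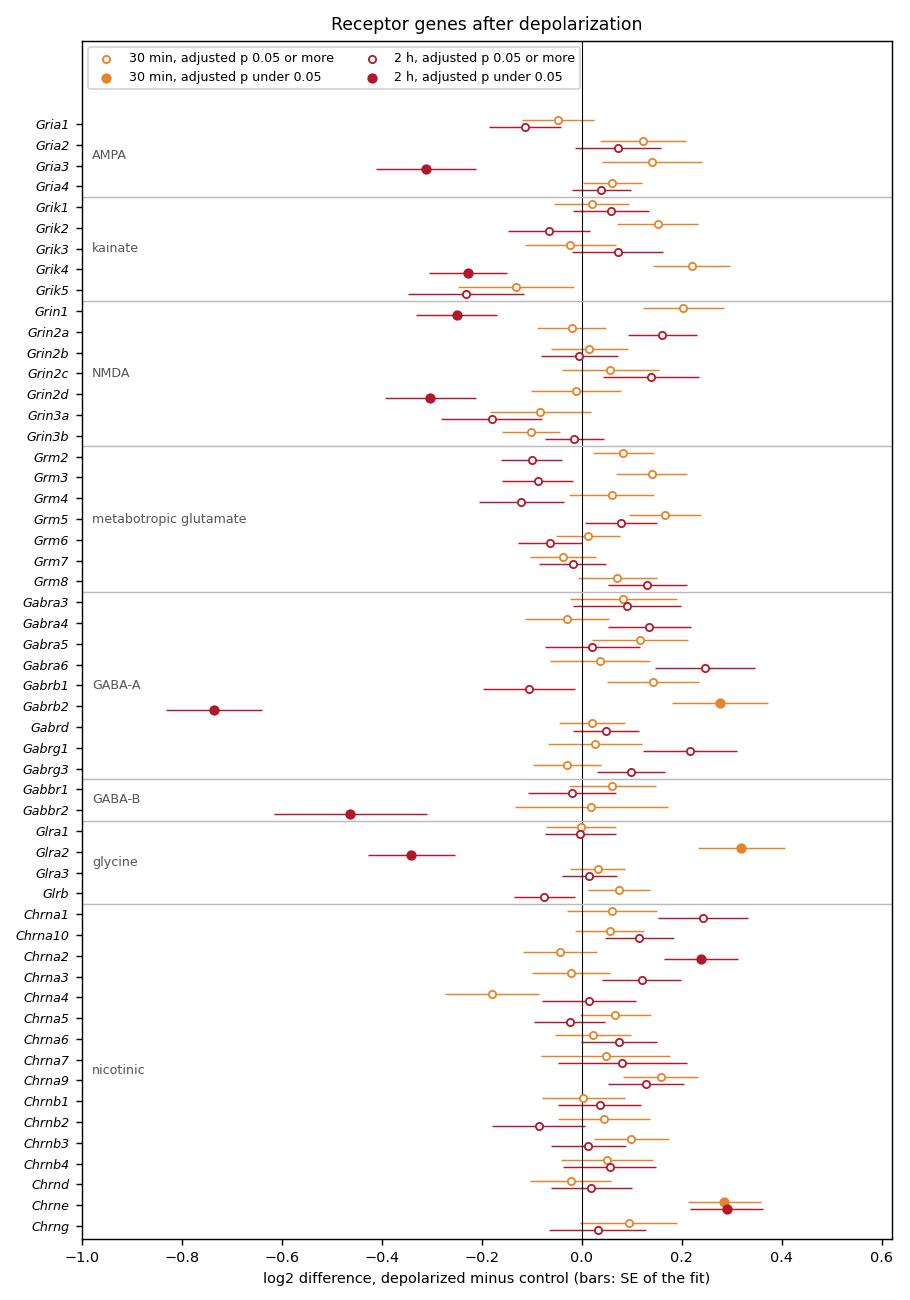
Log2 difference between depolarized and control cultures at 30 min (orange) and 2 h (red) for each of the 54 receptor genes, with the SE of the fit as bars and filled points at an adjusted p under 0.05. Gabrb2 and Glra2 are to the right of 0 at 30 min and to the left at 2 h, and Chrne is to the right at both times.

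RefSeq's promoter table (GRCr8) held an entry for 4 of the 5 genes whose responses differed between the collection times. The 250 bases before each start site are printed 5′ to 3′ on the gene's strand, because activity-regulated promoters often hold sites for CREB, AP-1 or EGR proteins. Capitals mark matches on either strand to TGACG, the core of the cyclic AMP response element that CREB binds, which was added to the search after the sequences had been seen.
Gabrb2, chr10:27439543-27439792, plus strand: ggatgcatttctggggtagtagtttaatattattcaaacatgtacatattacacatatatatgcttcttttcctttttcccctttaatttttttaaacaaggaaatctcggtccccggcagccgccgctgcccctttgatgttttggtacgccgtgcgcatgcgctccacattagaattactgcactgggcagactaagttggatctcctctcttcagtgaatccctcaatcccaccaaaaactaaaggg
Glra2, chrX:32651937-32652186, plus strand: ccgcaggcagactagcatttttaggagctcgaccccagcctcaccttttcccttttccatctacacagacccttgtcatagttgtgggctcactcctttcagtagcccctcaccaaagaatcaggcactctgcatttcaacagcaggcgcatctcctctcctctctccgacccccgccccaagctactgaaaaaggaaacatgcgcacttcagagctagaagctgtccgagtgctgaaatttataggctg
Grik4, chr8:52102064-52102313, minus strand: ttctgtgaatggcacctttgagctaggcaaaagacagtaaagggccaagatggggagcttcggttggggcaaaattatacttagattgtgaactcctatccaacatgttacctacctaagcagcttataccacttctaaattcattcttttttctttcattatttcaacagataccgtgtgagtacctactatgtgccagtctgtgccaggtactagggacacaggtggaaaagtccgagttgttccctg
Grin1, chr3:28528755-28529004, minus strand: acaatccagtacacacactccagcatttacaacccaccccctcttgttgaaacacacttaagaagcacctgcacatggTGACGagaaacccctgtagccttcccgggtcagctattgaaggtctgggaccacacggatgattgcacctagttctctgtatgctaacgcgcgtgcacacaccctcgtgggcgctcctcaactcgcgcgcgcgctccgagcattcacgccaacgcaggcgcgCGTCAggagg

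Grin1 held TGACG at 172 to 168 bases before the start and, on the opposite strand, as CGTCA at 10 to 6 bases before it. The windows of Gabrb2, Glra2 and Grik4 held none of the motifs searched, on either strand. Promoters were matched for 41 of the 54 genes. The full cyclic AMP response element TGACGTCA was in 0 of the 41 and in 1.7% of all 27457 promoters in the table, and the AP-1 motif TGANTCA in 0 and in 6.36%. The EGR motif GCGNGGGCG was in 3 (Gria4, Gabra4 and Glra3), 7.32% of the receptor promoters, and in 4.53% of all promoters. TGACG, which lies within the full element, was in 4 (Grin1, Grik2, Gabbr2 and Chrng), 9.76%, and in 19% of all. Receptor promoters had a median GC content of 58.8% and all promoters one of 52.0%. These are letter matches in a fixed window, and binding was not tested.

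Among the NMDA receptor genes, Grin1 encodes the obligatory GluN1 subunit. Its levels were 8.31, 8.26 and 8.33 log2 units in the 30 min controls, 8.67, 8.49 and 8.35 in the depolarized cultures at 30 min, 9.07, 9.18 and 9.09 in the 2 h controls and 8.72, 8.92 and 8.94 in the depolarized cultures at 2 h. The depolarized arrays were all above the controls at 30 min and all below them at 2 h. The 30 min difference of 0.20 did not pass (SE 0.08, adjusted p = 0.0852), and at 2 h Grin1 fell by 0.25 (SE 0.08, 1.19-fold lower, adjusted p = 0.032). The responses differed by -0.45 (SE 0.11, adjusted p = 0.0144), which held without each array in turn (up to 0.0425). The fall at 2 h was lost without control arrays 4, 5 or 6 or depolarized array 4 (adjusted p up to 0.165) and after median centring (0.0636), quantile (0.0916) or loess (0.0504) normalization. After the same 3 normalizations the 30 min difference passed (0.0247, 0.0254 and 0.0346). In the controls Grin1 was 0.81 higher at 2 h (SE 0.08, 1.76-fold, adjusted p = 1.29e-06). Its dimmer probe set passed in no comparison.

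Grin2d, among the dimmest 25%, encodes GluN2D, a subunit of slowly decaying NMDA receptors found in the embryonic brain and midbrain. It was at 6.35, 6.38 and 6.55 log2 units in the 30 min controls, 6.54, 6.38 and 6.33 in the depolarized cultures at 30 min, 7.05, 7.01 and 6.72 in the 2 h controls and 6.53, 6.64 and 6.71 in the depolarized cultures at 2 h. The depolarized arrays overlapped with the controls at 30 min and lay below them at 2 h, with a gap smaller than the spread of either group. Grin2d fell by 0.30 at 2 h (SE 0.09, 1.23-fold lower, adjusted p = 0.022), a call lost without control arrays 4 or 5 or depolarized array 4 (adjusted p up to 0.11). It was 0.50 higher in the 2 h controls than in the 30 min controls (SE 0.09, adjusted p = 0.000461). Its dimmer probe set differed by -0.02 at 2 h and by -0.15 between the controls, and did not pass.

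Grin2c, the GluN2C subunit gene, was the NMDA receptor gene that was lower in the 2 h controls, at 8.17, 8.33 and 8.46 log2 units against 8.50, 8.74 and 8.63 in the 30 min controls (-0.30, SE 0.10, adjusted p = 0.0232). This did not pass without control arrays 2, 3, 4 or 5 (adjusted p up to 0.118). Its depolarized arrays, at 8.83, 8.69 and 8.52 and at 8.46, 8.60 and 8.32, overlapped with their controls. Grin2b, which encodes the GluN2B subunit typical of developing neurons, passed in no comparison. Its values were 8.20, 8.20 and 8.26 in the 30 min controls, 8.31, 8.21 and 8.19 in the depolarized cultures at 30 min, 7.95, 8.09 and 8.20 in the 2 h controls and 7.95, 8.20 and 8.07 in the depolarized cultures at 2 h, with treatment differences of 0.02 (95% interval -0.15 to 0.18) and -0.01 (-0.17 to 0.16). Grin2a, Grin3a and Grin3b passed nowhere either, with differences of -0.10 to -0.02 at 30 min and -0.18 to 0.16 at 2 h.

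Of the AMPA receptor genes, Gria3, the GluA3 subunit gene, passed with treatment at its brightest probe set. It was at 8.55, 8.50 and 8.29 log2 units in the 30 min controls, 8.41, 8.63 and 8.72 in the depolarized cultures at 30 min, 8.92, 8.81 and 8.54 in the 2 h controls and 8.51, 8.42 and 8.42 in the depolarized cultures at 2 h. The depolarized arrays lay below the controls at 2 h and overlapped with them at 30 min. Gria3 fell by 0.31 at 2 h (SE 0.10, 1.24-fold lower, adjusted p = 0.0312), and the responses differed by -0.45 (SE 0.14, adjusted p = 0.046). The fall was lost without control arrays 4 or 5 or depolarized arrays 4, 5 or 6 (adjusted p up to 0.158) and after median centring (0.0617), quantile (0.0806) or loess (0.065) normalization. The difference between the responses did not pass without 9 of the 12 arrays (adjusted p up to 0.12). It held without control array 1, control array 6 or depolarized array 1. It was also lost after quantile (0.0505) or loess (0.0608) normalization and with the replicate number as a block (0.062). Between the controls Gria3 was 0.31 higher at 2 h (SE 0.10, adjusted p = 0.0233), a call lost without control arrays 3, 4 or 5 (adjusted p up to 0.124). Its dimmer probe set passed in no comparison, with -0.09 at 2 h.

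Gria2 encodes GluA2, the subunit that makes AMPA receptors nearly impermeable to calcium, and its probe sets disagreed. The brighter one was at 10.39, 10.37 and 10.34 log2 units in the 30 min controls, 10.31, 10.44 and 10.74 in the depolarized cultures at 30 min, 10.78, 10.78 and 10.71 in the 2 h controls and 10.89, 10.84 and 10.76 in the depolarized cultures at 2 h. It did not pass with treatment (0.12 and 0.07) and was 0.39 higher in the 2 h controls (SE 0.09, adjusted p = 0.0024). The dimmer one read 8.80, 8.80 and 8.72 in the 30 min controls, 8.72, 8.66 and 8.90 in the depolarized cultures at 30 min, 9.74, 9.90 and 9.79 in the 2 h controls and 9.22, 9.37 and 9.26 in the depolarized cultures at 2 h. On it all depolarized arrays at 2 h lay below the controls, Gria2 fell by 0.53 (SE 0.07, 1.44-fold lower, adjusted p = 7.92e-05), and the 2 h controls were 1.04 above the 30 min controls (SE 0.07, adjusted p = 3.35e-08). The responses on this probe set differed by -0.52 (SE 0.10, adjusted p = 0.00279). With the probe set of the lowest p taken for every gene, 10 genes passed at 2 h and 6 in the test of the difference.

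Gria1, the GluA1 subunit gene, lay among the dimmest 25% of probe sets and passed in no comparison. It was at 6.51, 6.54 and 6.50 log2 units in the 30 min controls, 6.51, 6.45 and 6.44 in the depolarized cultures at 30 min, 6.60, 6.44 and 6.45 in the 2 h controls and 6.27, 6.33 and 6.54 in the depolarized cultures at 2 h, and the groups overlapped in each comparison. Its treatment differences were -0.05 (95% interval -0.20 to 0.11) and -0.11 (-0.27 to 0.04). Gria4 was dim as well and differed by 0.06 and 0.04, with no call.

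Of the kainate receptor genes, Grik4 passed with treatment. It encodes GluK4, a high-affinity subunit that needs a partner from the low-affinity group. Grik4 was at 8.75, 8.63 and 8.75 log2 units in the 30 min controls, 8.91, 8.87 and 9.02 in the depolarized cultures at 30 min, 8.80, 8.85 and 8.69 in the 2 h controls and 8.56, 8.41 and 8.70 in the depolarized cultures at 2 h. The arrays were apart at 30 min, where the difference of 0.22 narrowly failed (SE 0.08, adjusted p = 0.0503), and overlapped at 2 h, where Grik4 fell by 0.23 (SE 0.08, 1.17-fold lower, adjusted p = 0.0419). The 30 min difference passed after leaving out the dimmest 25% of probe sets (0.045), median centring (0.0113), quantile (0.00737) or loess (0.0226) normalization. The fall was lost without control arrays 4 or 5 or depolarized arrays 4 or 5 (adjusted p up to 0.19), and after median centring (0.0768), quantile (0.069) or loess (0.0792) normalization, with a trended prior (0.0528) and in a fit of only the arrays compared (0.0703). With the replicate number as a block its adjusted p was 0.0722. The difference between the responses, -0.45 (SE 0.11, adjusted p = 0.0122), held without each array in turn (up to 0.0387). The 2 sets of controls did not pass for Grik4 (0.07, adjusted p = 0.504).

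Grik1, Grik2 and Grik5, which encode GluK1, GluK2 and GluK5, were higher in the 2 h controls and passed with treatment at neither time. Grik2 was at 7.02, 7.11 and 7.14 log2 units in the 30 min controls and 7.95, 7.88 and 7.73 in the 2 h controls (0.76, SE 0.08, 1.7-fold, adjusted p = 2.89e-06), with depolarized arrays at 7.21, 7.11 and 7.40 and at 7.76, 7.71 and 7.89. Grik5 was at 8.89, 9.08 and 9.26 against 9.82, 9.85 and 9.50 (0.65, SE 0.12, adjusted p = 0.000415), with depolarized arrays at 9.11, 8.69 and 9.03 and at 9.52, 9.44 and 9.51. For all of these genes the arrays of the 2 control groups were apart, and depolarized and control arrays of one time overlapped. Grik1, among the dimmest 25%, was at 6.29, 6.27 and 6.25 against 6.46, 6.49 and 6.59 (0.25, SE 0.08, adjusted p = 0.0182) and at 6.34, 6.30 and 6.23 and 6.40, 6.71 and 6.62 after depolarization. Its call was lost without control arrays 3 or 6 (adjusted p up to 0.0641). Grik3 passed nowhere, with differences of -0.02 and 0.07.

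No metabotropic glutamate receptor gene passed with treatment at either time. Median centring alone brought in Grm3 (adjusted p = 0.0482) and Grm5 (0.0475) at 30 min. Grm5, a receptor gene of group I that couples to phospholipase C, was at 7.36, 7.53 and 7.59 log2 units in the 30 min controls, 7.62, 7.64 and 7.72 in the depolarized cultures at 30 min, 7.19, 7.18 and 7.18 in the 2 h controls and 7.30, 7.34 and 7.15 in the depolarized cultures at 2 h. Its depolarized arrays lay above the controls at 30 min, where the difference of 0.17 did not pass (SE 0.07, adjusted p = 0.115). Between the controls Grm5 was lower at 2 h (-0.31, SE 0.07, 1.24-fold, adjusted p = 0.00324). Grm3, a receptor gene of group II, read 7.85, 7.60 and 7.76 in the 30 min controls, 7.93, 7.81 and 7.89 in the depolarized cultures at 30 min, 7.77, 7.77 and 7.62 in the 2 h controls and 7.61, 7.63 and 7.66 in the depolarized cultures at 2 h. Its differences of 0.14 and -0.09 did not pass (adjusted p = 0.191 and 0.42).

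Grm8, a receptor gene of group III, had one bright and 2 dimmer probe sets. On the bright one it was at 10.22, 10.24 and 10.29 log2 units in the 30 min controls, 10.38, 10.33 and 10.25 in the depolarized cultures at 30 min, 10.00, 10.18 and 10.25 in the 2 h controls and 10.31, 10.40 and 10.13 in the depolarized cultures at 2 h, with no call. The brighter of the others read 6.75, 6.81 and 6.71 in the 30 min controls and 7.20, 7.09 and 7.11 in the 2 h controls (0.38, SE 0.09, adjusted p = 0.00331), where the bright probe set differed by -0.10 (adjusted p = 0.33). The dimmest passed in no comparison and differed by -0.20 at 2 h (adjusted p = 0.0583). Grm2, Grm4, Grm6 and Grm7 lay among the dimmest 25% and differed by -0.04 to 0.08 at 30 min and by -0.12 to -0.02 at 2 h.

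Of the 16 nicotinic receptor genes, 10 were among the dimmest 25%. Chrne, which encodes the epsilon subunit of the adult muscle receptor, was higher after depolarization at both times. Its levels were 7.53, 7.61 and 7.53 log2 units in the 30 min controls, 7.91, 7.84 and 7.78 in the depolarized cultures at 30 min, 7.47, 7.43 and 7.61 in the 2 h controls and 7.74, 7.71 and 7.94 in the depolarized cultures at 2 h. At both times all depolarized arrays lay above all controls. Chrne rose by 0.28 at 30 min (SE 0.07, 1.22-fold, adjusted p = 0.00849) and by 0.29 at 2 h (SE 0.07, 1.22-fold, adjusted p = 0.00819), and both calls held without each array in turn (up to 0.0359 and 0.0447). The difference between the responses had a 95% interval of -0.22 to 0.22, and the controls differed by -0.05 (adjusted p = 0.599). Beside it, 7 of the 8 skeletal muscle markers measured lay among the dimmest 25%, and 0 of the 8 passed with treatment, where 24% of all probe sets passed at 30 min and 25.2% at 2 h. Their list mean was 6.25 to 6.31 log2 units on the 30 min control arrays, 6.26 to 6.39 on the depolarized arrays at 30 min, 6.28 to 6.31 on the 2 h control arrays and 6.27 to 6.41 on the depolarized arrays at 2 h. Their part in the Chrne values was not tested.

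Chrna2, a neuronal alpha subunit gene, rose at 2 h. It was at 8.30, 8.29 and 8.47 log2 units in the 30 min controls, 8.38, 8.40 and 8.16 in the depolarized cultures at 30 min, 8.02, 8.01 and 8.12 in the 2 h controls and 8.29, 8.29 and 8.28 in the depolarized cultures at 2 h. The depolarized arrays at 2 h were above their controls and below the 30 min controls. The difference at 2 h was 0.24 (SE 0.07, 1.18-fold, adjusted p = 0.0271) and was lost without control arrays 4 or 5 or depolarized arrays 4, 5 or 6 (adjusted p up to 0.094) and with the replicate number as a block (0.0676). The 2 h controls were lower than the 30 min controls (-0.31, SE 0.07, adjusted p = 0.00432), and the difference between the responses, 0.28, did not pass (adjusted p = 0.0965).

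The muscle-type alpha 1 and beta 1 subunit genes Chrna1 and Chrnb1, both among the dimmest 25%, passed between the controls and not with treatment. Chrna1 was at 6.70, 6.73 and 6.74 log2 units in the 30 min controls and 6.34, 6.41 and 6.52 in the 2 h controls (-0.30, SE 0.09, adjusted p = 0.0167), and at 6.88, 6.84 and 6.64 and 6.79, 6.77 and 6.44 after depolarization. At 2 h its difference of 0.24 had an adjusted p of 0.0613, which was 0.0053 without depolarized array 6, 0.0489 without control array 6 and 0.0365 after median centring. The difference between the controls was lost without control array 4 (adjusted p = 0.0726). Chrnb1 was at 6.20, 6.39 and 6.40 against 6.01, 6.07 and 6.09 in the controls (-0.27, SE 0.08, adjusted p = 0.0179), and at 6.41, 6.27 and 6.31 and 5.94, 6.28 and 6.06 after depolarization. It was lost without control arrays 2, 3 or 4 (adjusted p up to 0.072) and after quantile normalization (0.0509).

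Chrna4, Chrna6 and Chrnb2 encode subunits of the nicotinic receptors of midbrain dopaminergic neurons. Chrna4 was at 7.30, 7.14 and 7.44 log2 units in the 30 min controls, 7.24, 7.10 and 7.0 in the depolarized cultures at 30 min, 6.93, 6.73 and 7.01 in the 2 h controls and 6.93, 7.0 and 6.79 in the depolarized cultures at 2 h. It did not pass with treatment (-0.18, adjusted p = 0.205, and 0.02, adjusted p = 0.933) and was lower in the 2 h controls (-0.40, SE 0.09, adjusted p = 0.00322). Chrna6 was at 7.44, 7.55 and 7.49 against 7.18, 7.19 and 7.40 in the controls (-0.24, SE 0.08, adjusted p = 0.023), with depolarized arrays at 7.58, 7.55 and 7.43 and at 7.25, 7.45 and 7.30 and no treatment call. The Chrna6 call was lost without control arrays 2, 3, 4 or 5 (adjusted p up to 0.0977). Both genes were lower in controls in which 6 of 9 dopaminergic markers were higher. Chrnb2, among the dimmest 25%, passed nowhere and read 6.57, 6.68 and 6.63 in the 30 min controls, 6.77, 6.63 and 6.60 in the depolarized cultures at 30 min, 6.55, 6.53 and 6.83 in the 2 h controls and 6.51, 6.73 and 6.41 in the depolarized cultures at 2 h.

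Chrna7 encodes the calcium-permeable alpha 7 subunit. It was at 8.37, 8.49 and 8.41 log2 units in the 30 min controls, 8.73, 8.50 and 8.19 in the depolarized cultures at 30 min, 7.90, 8.08 and 8.38 in the 2 h controls and 8.12, 8.39 and 8.09 in the depolarized cultures at 2 h. Treated and control arrays overlapped at both times, and the differences of 0.05 (95% interval -0.23 to 0.32) and 0.08 (-0.19 to 0.36) did not pass. Between the controls Chrna7 differed by -0.30 (adjusted p = 0.08). This difference passed with array weights (0.0196), in a fit of only the arrays compared (0.0325) and without control array 6 (0.0192). Chrna9, among the dimmest 25% and best known from the inner ear, was at 6.33, 6.29 and 6.36 against 6.08, 6.08 and 6.21 in the controls (-0.21, SE 0.08, adjusted p = 0.0437), a call lost without control arrays 1, 2, 3, 4 or 5 (adjusted p up to 0.131) and after quantile (0.116) or loess (0.098) normalization. After depolarization it was at 6.62, 6.50 and 6.34 and at 6.17, 6.35 and 6.23. The other 7 nicotinic genes passed nowhere, with differences of -0.02 to 0.10 at 30 min and -0.02 to 0.12 at 2 h.

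Between the controls, nicotinic genes were higher for 0 and lower for 6 of 16, and kainate genes higher for 3 and lower for 0 of 5. GABA-B genes were higher for 2 of 2, and GABA-A genes higher for 3 and lower for 3 of 9. AMPA and glycine receptor genes were each higher for 2 and lower for 0 of 4. NMDA genes were higher for 2 and lower for 1 of 7, and metabotropic genes for 0 and 1 of 7. Of all probe sets 35.3% passed, 18.1% higher and 17.2% lower. Quantile normalization and loess correction altered part of this. The nicotinic count became 1 higher (Chrna5) and 4 lower after quantile normalization and 1 higher and 5 lower after loess correction, and the GABA-A count 3 higher and 1 lower after both. Over all 54 genes quantile normalization gave 16 higher and 7 lower. The median difference of all tested probe sets between the controls was -0.07 in the dimmest of 4 equal groups by level, -0.10 in the second, 0.02 in the third and 0.05 in the brightest, and these groups held 26, 17, 7 and 4 receptor genes. The part of this trend in the nicotinic counts was not tested.

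**Figure D5:**
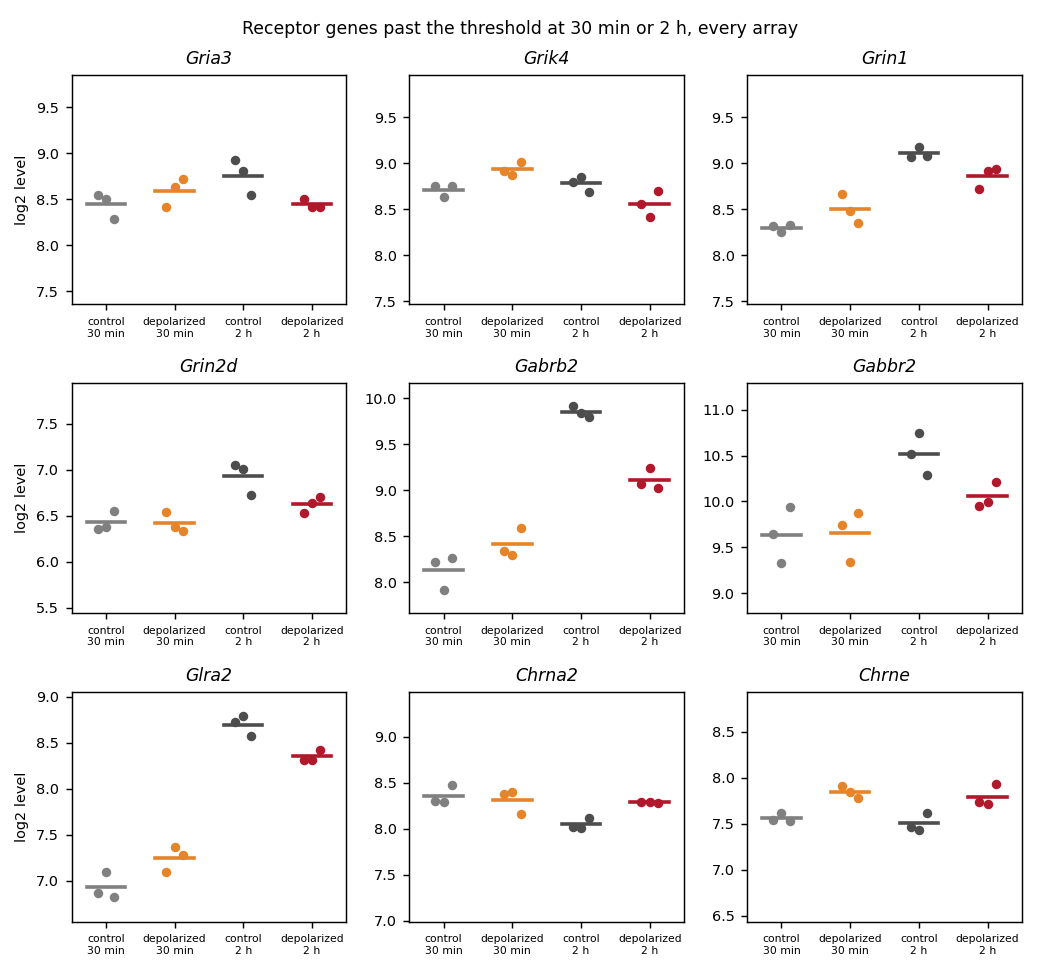
Log2 level on each array of the 9 receptor genes with an adjusted p under 0.05 at 30 min or 2 h, by group, with a bar at each group mean and the same span on every axis. Gabrb2 and Glra2 combine a high level in the 2 h controls with lower depolarized arrays at 2 h, and Chrne is higher in the depolarized cultures at both times. Both readings of Gabrb2 and Glra2 use the same 2 h control arrays.

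Partner genes of the receptors are given from lists of their auxiliary subunits, scaffolds and transporters. Of 15 auxiliary subunits and partners of AMPA and kainate receptors measured, 0 were higher and 1 lower at 30 min, and 1 higher and 4 lower at 2 h, where 24% of all probe sets passed at 30 min and 25.2% at 2 h. Nptx1, a secreted pentraxin that gathers AMPA receptors, was at 6.54, 6.51 and 6.53 log2 units in the 2 h controls and 8.56, 8.07 and 8.80 in the depolarized cultures, a rise of 1.96 (SE 0.13, adjusted p = 7.3e-08). Cacng2, the AMPA receptor trafficking subunit stargazin, fell by 0.44 at 2 h (SE 0.12, adjusted p = 0.0107). Abhd6, a lipase that restrains AMPA receptor delivery, fell by 0.33 at 30 min and by 0.32 at 2 h, and Porcn fell by 0.23 at 2 h. Between the controls Cacng2 was 1.21 and Porcn 0.24 higher at 2 h, and Nptx1 (0.31) and Abhd6 (0.18) did not pass.

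Of 27 genes of the excitatory postsynaptic scaffold, 4 were higher and 2 lower at 30 min, and 5 higher and 4 lower at 2 h (24% and 25.2% of all probe sets). Arc, the immediate-early gene whose product removes AMPA receptors from synapses, rose by 2.63 at 30 min (SE 0.20, adjusted p = 9.87e-08) and by 1.49 at 2 h (SE 0.20, adjusted p = 6.12e-05). Lin7c rose by 0.41 and Dlg1 by 0.23 at 30 min, and Pick1, which binds GluA2, fell by 0.34. At 2 h Shank2 fell by 0.47 (SE 0.09), Nsf by 0.44 (SE 0.08) and Dlg3, a scaffold of NMDA receptors, by 0.37 (SE 0.07). These 3 genes were higher in the 2 h than in the 30 min controls, Shank2 by 0.86, Nsf by 0.72 and Dlg3 by 0.39. Arc (-0.38) did not pass. The other calls are given here after their values were seen. Homer1, at its brightest probe set, rose by 0.24 at 30 min and 0.26 at 2 h, and Nsf fell by 0.25 at 30 min. Lin7c (0.31), Lin7a (0.30) and Homer3 (0.29) rose at 2 h, and Camk2b fell by 0.30. Between the controls Camk2b was 1.16 and Homer1 0.24 higher at 2 h, Homer3 (-0.68) was lower, and Lin7a and Lin7c did not pass.

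Among 16 partners of the inhibitory receptors, 1 was higher and 1 lower at 30 min, and 0 higher and 3 lower at 2 h (24% and 25.2% of all probe sets). Gphn, the gephyrin scaffold that anchors glycine and GABA-A receptors, was at 9.93, 9.83 and 9.85 log2 units in the 2 h controls and 9.33, 9.29 and 9.22 in the depolarized cultures, and fell by 0.59 (SE 0.08, adjusted p = 0.000106). Plcl2, whose product binds GABA-A receptor beta subunits, fell by 0.52 at 30 min and by 0.51 at 2 h, and Ubqln1 by 0.19 at 2 h. Gabarapl1, related to the GABA-A receptor-associated protein, rose by 0.48 at 30 min (SE 0.07, adjusted p = 6.78e-05). Between the controls Gphn was 0.31, Plcl2 0.52 and Gabarapl1 0.62 higher at 2 h, and Ubqln1 (0.12) did not pass. Of 11 nicotinic receptor partners, 1 was higher and 0 lower at 30 min, and 1 higher and 1 lower at 2 h (24% and 25.2% of all probe sets). Ywhah, which encodes 14-3-3 eta, rose by 0.28 and 0.27, and Ly6e fell by 0.31 at 2 h. Between the controls Ywhah was 0.47 higher at 2 h and Ly6e was lower (-0.31).

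Of 22 genes for the synthesis and transport of these transmitters and for the chloride gradient, 0 were higher and 1 lower at 30 min, and 4 higher and 3 lower at 2 h (24% and 25.2% of all probe sets). Slc12a5, the neuronal chloride exporter KCC2 that sets the direction of current through GABA-A and glycine receptors, was at 11.38, 11.30 and 11.42 log2 units in the 2 h controls and 10.85, 11.13 and 11.04 in the depolarized cultures, and fell by 0.36 (SE 0.09, adjusted p = 0.00717). Slc6a13, a GABA transporter, fell by 0.30 at 30 min and by 0.65 at 2 h, and Slc1a1, a neuronal glutamate transporter, by 0.51 at 2 h. Glul, the glutamine synthetase of astrocytes, rose by 0.49 at 2 h (SE 0.08, adjusted p = 0.000511). The chloride transporter genes Slc12a2 and Slc12a7, named here after their values were seen, rose by 0.24 (adjusted p = 0.0427) and 0.22 (adjusted p = 0.0387) at 2 h. They lie outside the naming rule, and not all of the 4 genes higher at 2 h are named. Between the controls Slc12a5 was 1.69 and Slc1a1 0.75 higher at 2 h, Glul (-0.56) and Slc12a7 (-0.33) were lower, and Slc6a13 (0.03) and Slc12a2 (-0.15) did not pass.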

How the data were processed

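RNA of 12 pooled culture samples, 3 in each of 4 groups, was measured on single-colour Affymetrix rat arrays. The authors deposited log2 expression values made with RMA, per the submitters' processing notes, and which arrays were normalized together is not given in the sources used here. The table held 15923 probe sets. The 57 array controls were left out, and 15866 were tested. Symbols came from the platform annotation, and 12783 probe sets carried 1 symbol, 312 several and 2771 none. No array pair held identical values. The number of arrays limits the precision.

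One mean per group was estimated from the 12 arrays together in limma 3.58.1 (lmFit and eBayes) in R 4.3.3, without a replicate block, with 8 residual degrees of freedom. Contrasts were depolarized minus control at 30 min and at 2 h, the difference between these responses, and the 2 h controls minus the 30 min controls. P-values were adjusted over all tested probe sets (Benjamini-Hochberg, threshold 0.05). The procedure was checked on simulated arrays. Of added changes of 0.25 log2 units, 26% were recovered at 30 min, 26% at 2 h and 24% between the controls. In the difference between the responses 4% were. Of changes of 0.5 the shares were 86%, 88%, 74% and 56%, in that order. A gene that did not pass may therefore still have changed by a small amount.

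The receptor genes and the lists of partners and markers were chosen with earlier results of these data known. Array values are given for every receptor gene passing in a contrast, the 4 brightest of the rest, and Grin1, Gria1, Gria2, Gabbr1, Glrb, Chrna4, Chrna7 and Chrnb2. From each partner list, up to 4 genes with the lowest p per treatment comparison are named. Alternatives were median centring, quantile normalization, loess correction, filters on dim probe sets, a trended and robust prior, array weights, a replicate block, fits of only the arrays compared, other probe sets of a gene, and leaving out each array. Same-numbered control and depolarized arrays did not deviate together in every pair, so the numbers were not taken as pairs. Promoters (RefSeq, GRCr8) were searched over 250 bases before the start for 4 motifs.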

Additional observations from a re-analysis of the deposited data

Results flagged for a closer look

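For 5 receptor genes the response to depolarization at 2 h differed from that at 30 min in limma's test of the difference itself. Of all probe sets, 13% passed this test. The labels do not say whether both times came from one preparation, so time and preparation cannot be told apart in it. The log2 response at 2 h minus that at 30 min was -1.01 for Gabrb2, -0.66 for Glra2, -0.45 for Gria3, -0.45 for Grik4 and -0.45 for Grin1. All 5 estimates were positive at 30 min and negative at 2 h, a pattern favoured by taking genes with a negative difference. At 30 min Gria3, Grik4 and Grin1 did not pass (adjusted p = 0.384, 0.0503 and 0.0852). The 2 h responses of these genes are measured against the 2 h controls, in which Gabrb2, Glra2, Gria3 and Grin1 were higher than in the 30 min controls and Grik4 did not pass. The difference for Gria3 did not pass without 9 of the 12 arrays (adjusted p up to 0.12), after quantile (0.0505) or loess (0.0608) normalization or with the replicate number as a block (0.062). The gap test for an outlying sample was not applied to groups of 3 arrays.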

How the results depend on the processing

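Of the receptor genes, 3 passed at 30 min, and this became 7 after median centring, 5 after quantile normalization and 5 after loess correction, and 2 to 4 when each array was left out in turn. At 2 h the count of 9 became 5 after quantile normalization, 5 after loess correction and 5 without the dimmest 50% of probe sets, a filter that leaves 11 of the 54 genes, and 3 to 12 when each array was left out. The count of 5 for the difference between the responses ranged from 4 to 6, and that of 25 between the controls from 17 to 26, when each array was left out. The latter was 9 without the dimmest 50%. Of the genes called at 2 h, 22.2% were higher, against 50% after median centring and 40% after quantile or loess normalization. Between the controls, 56% were higher, against 69.6% after quantile normalization. No value changed direction while called. The cause of these shifts was not tested, apart from the smaller number of genes left by the filter.

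With the replicate number as a block, 3 genes passed at 30 min, 7 at 2 h, where Grik4 and Chrna2 were lost, and 4 in the difference between the responses, where Gria3 was lost, as it was after quantile or loess normalization. Deviations of same-numbered control and depolarized arrays correlated at -0.32, 0.23 and 0.05 at 30 min and at 0.24, -0.11 and -0.24 at 2 h, and 4 of 12 arrays correlated best with their own number. Deviations from a mean of 3 arrays depend on each other, and a best match among 3 numbers also arises without pairing. These values therefore cannot decide whether the numbers mark pairs. The 2 sets of controls share no numbers, so no such fit was possible for them. Of the 54 genes, 26 lie among the dimmest 25% of probe sets, of which 6.45% passed at 30 min and 7.44% at 2 h, and how signal limits detection was not tested.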

Other observations

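Other neurotransmitter receptor genes lay outside the set described above. Of 22 measured, among them the delta glutamate receptor gene Grid1, further GABA-A subunits, serotonin-gated, ATP-gated and muscarinic receptors, 11 were among the dimmest 25% of probe sets. With treatment, 0 were higher and 1 lower at 30 min, and 0 higher and 1 lower at 2 h, where 24% and 25.2% of all probe sets passed. The muscarinic receptor gene Chrm4 fell by 0.51 at 30 min (SE 0.07, limma adjusted p = 5.03e-05), and the ATP-gated channel gene P2rx6 fell by 0.47 at 2 h (SE 0.10, adjusted p = 0.00272). Between the controls, 0 of the 22 were higher and 2 lower at 2 h, where 35.3% of all probe sets passed (18.1% higher and 17.2% lower). These were Htr3a, a subunit of the serotonin-gated cation channel (-0.89, adjusted p = 1.03e-05), and Chrm4 (-0.46, adjusted p = 0.000106).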
